A study of Mus musculus with 24 samples.

Results

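The circadian clock genes examined here were Arntl, Clock, Npas2, Per1, Per2, Per3, Cry1, Dbp, Nr1d1 and Bhlhe40, chosen by name as the core and close outputs of the molecular clock. Arntl is also known as Bmal1. Npas2 was not analysed here because no probe set carried its name, so 9 of the 10 genes were described, among 19938 named genes tested. Each of the 9 had 1 probe set, and none was removed by a filter on low values. Their RNA was measured in epididymal white fat, a visceral depot, of 24 male wild-type C57Bl/6 mice on 1 array per mouse. The mice fell into 4 groups of 6: conventional mice fed lard, germ-free mice fed lard, conventional mice fed fish oil and germ-free mice fed fish oil. Conventional mice carry a normal microbiota, and germ-free mice are raised without microbes. All mice were 11 weeks old at the start, ate for 11 weeks a diet with 45% of its energy from fat, either lard or menhaden fish oil, and were fasted for 4 h before sampling. No source used here gives the hour of sampling, the order in which mice were sampled or the light schedule, so a difference in clock phase and a difference in level at a given phase cannot be told apart. Bacterial status and the colony a mouse came from cannot be told apart either, and in a whole depot fewer cells of a type and less RNA per cell cannot be told apart.

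The clock is a feedback loop of transcription that runs in nearly every cell, adipocytes included. CLOCK and its partner ARNTL bind E-box sequences and switch on the Per and Cry genes, whose proteins return to the nucleus and repress CLOCK and ARNTL. A second loop runs through NR1D1 (REV-ERBα), also switched on by CLOCK and ARNTL, which represses Arntl at ROR elements (ROREs). DBP, an activator that binds D-box sequences, carries the rhythm on to further genes, and BHLHE40 (DEC1) competes for E-boxes. In many mouse tissues Arntl therefore peaks when Dbp, Nr1d1 and the Per genes are low.

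The promoters of 4 of the genes are shown because their windows hold letters that match an E-box, a D-box or a RORE. The sequences are RefSeq promoter windows on GRCm38.p6, from 250 bases before to 50 bases after each gene's start, read on the gene's own strand, 5′ to 3′. Arntl and Per1 have 2 listed starts each, and the one whose window holds the match is used. Capitals mark the matched letters. For Arntl the 30 bases around a RORE are printed, which begins at base 28 when the gene's start is counted as base 1. For the others the 250 bases before the start are printed.
Arntl, chr7:113207528-113207557, plus strand: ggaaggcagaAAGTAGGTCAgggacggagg
Per1, chr11:69098699-69098948, plus strand: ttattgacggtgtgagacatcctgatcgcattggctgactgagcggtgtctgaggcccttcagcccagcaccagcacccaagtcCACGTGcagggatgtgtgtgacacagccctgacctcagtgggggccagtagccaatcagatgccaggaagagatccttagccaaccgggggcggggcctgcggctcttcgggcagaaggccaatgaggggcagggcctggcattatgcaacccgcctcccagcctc
Cry1, chr10:85185055-85185304, minus strand: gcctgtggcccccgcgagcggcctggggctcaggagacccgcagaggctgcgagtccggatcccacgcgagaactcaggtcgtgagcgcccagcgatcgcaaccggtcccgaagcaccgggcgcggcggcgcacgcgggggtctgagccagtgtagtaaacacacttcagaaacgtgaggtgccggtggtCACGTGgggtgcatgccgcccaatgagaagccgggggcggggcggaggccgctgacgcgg
Per3, chr4:151044666-151044915, minus strand: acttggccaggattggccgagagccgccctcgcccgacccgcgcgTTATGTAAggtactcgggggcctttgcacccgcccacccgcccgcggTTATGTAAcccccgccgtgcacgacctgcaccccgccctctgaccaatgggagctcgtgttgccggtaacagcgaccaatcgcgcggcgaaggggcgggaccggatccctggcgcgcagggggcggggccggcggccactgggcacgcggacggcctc
The letters searched on both strands were CACGTG for the E-box, TTATGTAA or TTACGTAA for the D-box, and AA, any base and then TAGGTCA for the RORE. The E-box of Per1 started 166 bases before the gene's start and that of Cry1 60 bases before it. Per3 held D-boxes 205 and 158 bases before its start. Of all 32851 windows, 7.15% held the E-box letters, 1.06% the D-box letters and 0.219% the RORE letters. The table held 12 windows for 8 of the 10 clock genes, Npas2 among them, and Per2 and Bhlhe40 were not searched. Among these 12 windows, 2 held the E-box, 1 the D-box and 1 the RORE. A match of letters is a description of the window and not evidence of a bound site.

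Values are log2 signals, so a difference of 1 is a 2-fold difference, and they were compared between groups only within a gene. Correlations between arrays of the same group lay between 0.979 and 0.995. Markers of mature adipocytes, such as Adipoq and Plin1, averaged between 12.63 and 13.31 log2 in every mouse. Some mice stood apart in markers of other cells. The mean of 10 macrophage markers was 11.80 and 11.79 log2 in lard-fed conventional mice 5 and 6, against 10.96 to 11.29 in the other mice of that group. The mean of 12 intestinal epithelium markers was 9.996 log2 in lard-fed germ-free mouse 4 and 6.97 and 6.96 in mice 2 and 5, against 5.94 to 6.43 in the others of that group. The mean of 15 liver markers lay between 8.55 and 9.95 log2 in all 6 fish oil-fed germ-free mice, and between 6.59 and 8.58 in the 18 mice of the other groups. Results were recomputed without the lard-fed mice that stood apart and with the liver marker mean as a covariate. That mean nearly separates the fish oil-fed germ-free group from the others, so the covariate and this group cannot be fully told apart. A difference from that group that no longer passes with the covariate is therefore not always a smaller difference. The values of Clock and Cry1 below are examples.

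With lard in place of fish oil, 2 clock genes rose and 3 fell in conventional mice, and 2 rose and 4 fell in germ-free mice. Dbp and Bhlhe40 rose and Arntl and Cry1 fell in both, while the call for Clock was made in conventional mice and those for Per1 and Nr1d1 in germ-free mice. The 2 comparisons share no mice. Calls are at an adjusted p under 0.05 (limma, Benjamini-Hochberg over all 19938 genes, two-sided). The 5 of 9 clock genes called in conventional mice stand beside 31.0% of all genes called, and the 6 of 9 called in germ-free mice beside 47.5%. Of all genes, 15.4% rose and 15.6% fell in conventional mice, and 20.4% rose and 27.1% fell in germ-free mice. Median centring of the arrays turned the balance in germ-free mice, with 4808 genes higher and 3313 lower, against 4072 higher and 5396 lower as deposited. The 2 groups did not overlap for 1 clock gene in conventional and 3 in germ-free mice, beside 14.6% and 24.5% of all genes. The median change of the 9 clock genes was -0.12 in conventional mice, against -0.04 over all genes, and -0.26 in germ-free mice, against -0.08. Cell markers moved as well: 9 of 10 macrophage markers rose with lard in conventional mice and 9 of 10 in germ-free mice, where 1 fell. Of 9 adipocyte markers 8 fell and 1 rose in conventional mice, and 6 fell and 1 rose in germ-free mice. Of 5 mesothelial markers 5 and 3 fell. The part of a changed mix of cells in the clock gene values was not tested. Without lard-fed conventional mice 5 and 6, only Clock was still called in conventional mice, beside 22.3% of all genes. With the liver marker mean as a covariate, Arntl, Dbp and Bhlhe40 were called in germ-free mice, beside 27.2% of all genes. With lard-fed germ-free mice 2, 4 and 5 omitted, germ-free calls were Arntl, Cry1, Dbp and Bhlhe40, beside 26.5% of all genes.

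**Figure D1:**
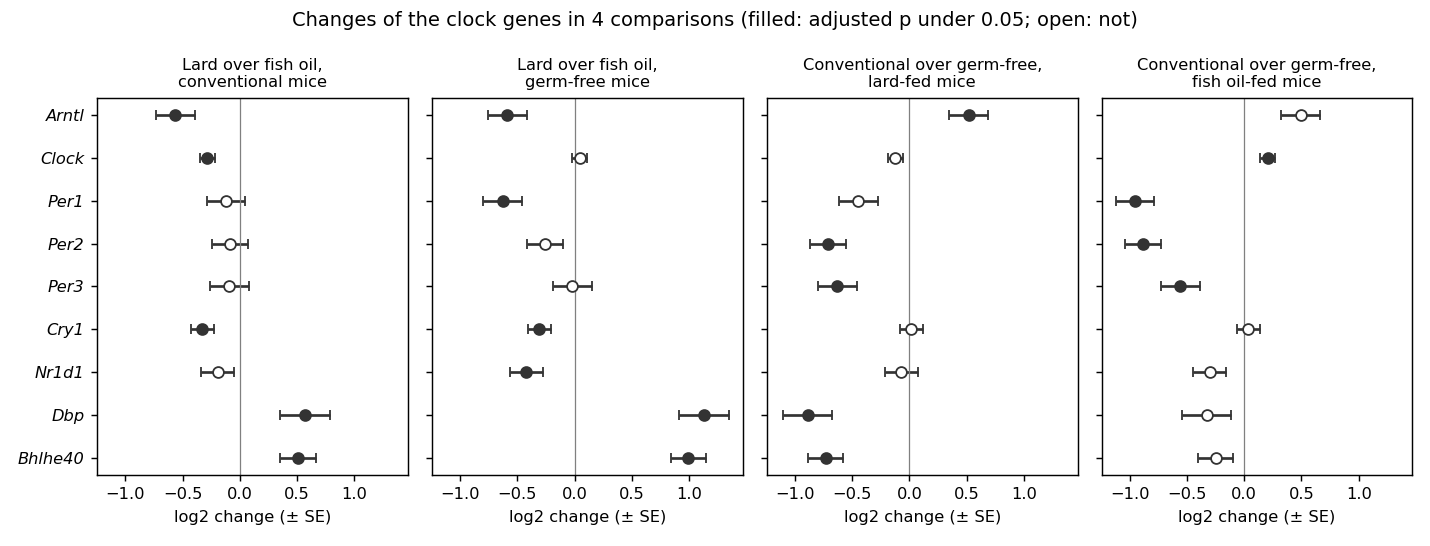
Log2 changes of the 9 clock genes in the 4 comparisons, with standard errors from the fit across all genes (6 mice per group). Filled points passed an adjusted p of 0.05 and open points did not. Dbp and Bhlhe40 lie right of 0 in both diet panels, and the Per genes left of 0 in both bacterial status panels.

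Conventional mice had less Per2 and Per3 than germ-free mice on both diets, and less Per1 with fish oil. With lard, Per2, Per3, Dbp and Bhlhe40 fell and Arntl rose, which makes 5 of 9 clock genes beside 16.3% of all genes. With fish oil, Per1, Per2 and Per3 fell and Clock rose, which makes 4 of 9 beside 12.4% of all genes. Of all genes, 7.48% fell and 8.77% rose with lard, and 5.21% fell and 7.15% rose with fish oil, where median centring gave 2757 genes higher and 701 lower in place of 1425 and 1039. The 2 groups did not overlap for 0 clock genes with lard, beside 4.15% of all genes, and for 2 with fish oil, beside 7.03%. The median change of the clock genes was -0.45 with lard, against 0.02 over all genes, and -0.30 with fish oil, against -0.01. With fish oil, 13 of the 15 liver markers were lower in conventional mice, and with lard 0 of 15 were called by limma (2 at an unadjusted p under 0.05). Macrophage markers were lower in conventional mice in 2 of 10 with lard and 3 of 10 with fish oil, and intestinal markers in 2 of 12 with lard and 1 of 12 with fish oil. With the liver marker mean as a covariate, 0 clock genes were called with fish oil by limma (3 at an unadjusted p under 0.05), beside 8.39% of all genes. With lard-fed germ-free mice 2, 4 and 5 omitted, Dbp was the 1 clock gene called with lard, beside 0.888% of all genes. Each group enters one diet and one status comparison, so the 2 kinds of comparison are not independent of each other.

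The comparison of the diet effects themselves, conventional minus germ-free mice, called 1 of 9 clock genes, Clock, beside 7.20% of all genes (4.38% below 0, as Clock was, and 2.81% above). Median centring gave 312 genes above 0 and 1688 below in place of 561 and 874. At an unadjusted p under 0.05 there were 3. The difference was 0.17 for Per2, -0.07 for Per3, -0.02 for Cry1 and 0.23 for Nr1d1 (adjusted p from 0.554 to 0.950). An effect called with one diet or bacterial status and not with the other was therefore not shown to differ for the other 8 genes. Clock lost this call in 5 settings that the closing section lists and in 9 fits that left out 1 mouse.

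**Figure D2:**
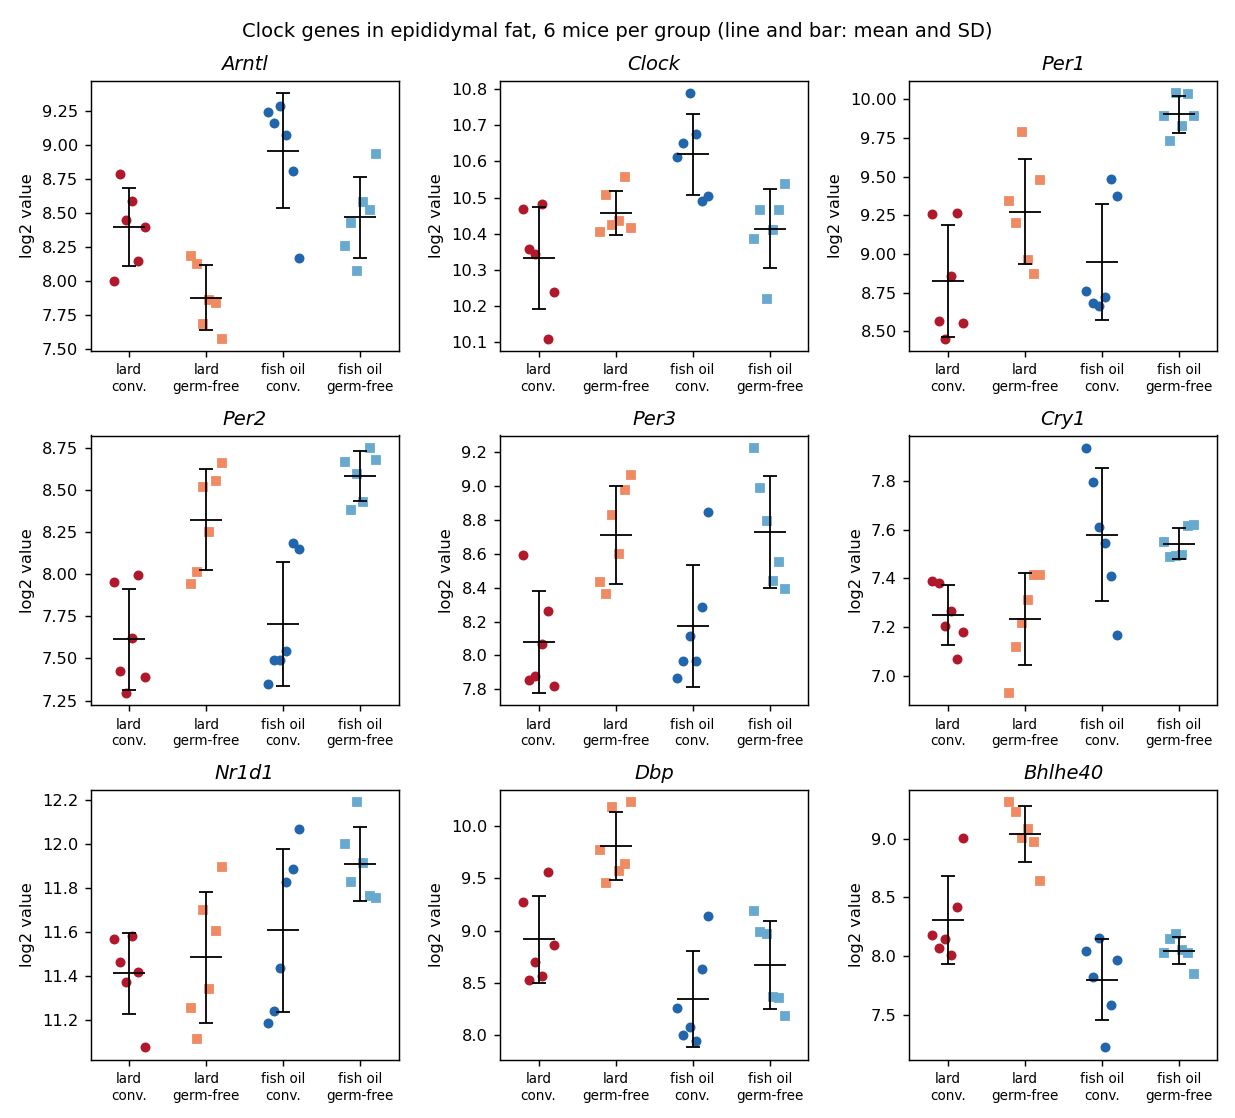
Log2 value of each of the 9 clock genes in every mouse. Each panel is 1 gene with its own axis, with 6 mice in each of the 4 groups, and the line and bar are the mean and SD. All 6 fish oil-fed germ-free mice lie above all fish oil-fed conventional mice for Per1 and Per2, and all 6 lard-fed germ-free mice lie above all fish oil-fed germ-free mice for Dbp and Bhlhe40.

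Arntl (probe set 10556463), the partner of CLOCK and the gene without which the mouse clock stops, was lower with lard than with fish oil. In lard-fed mice its lowest, median and highest values were 8.00, 8.43 and 8.79 log2 when conventional and 7.58, 7.85 and 8.18 when germ-free. In fish oil-fed mice they were 8.17, 9.12 and 9.29 when conventional and 8.08, 8.48 and 8.94 when germ-free. Lard-fed germ-free mice were thus lowest and fish oil-fed conventional mice highest, with medians of 8.43 in lard-fed conventional and 8.48 in fish oil-fed germ-free mice in between, and each pair of groups compared overlapped. The change with lard was -0.56 ± 0.17 in conventional mice (SE, limma adjusted p = 0.0127) and -0.59 ± 0.17 in germ-free mice (adjusted p = 0.00656), which is 1.48-fold and 1.51-fold higher with fish oil. The change in conventional over germ-free mice was 0.52 ± 0.17 with lard (adjusted p = 0.0374) and 0.49 ± 0.17 with fish oil, where it missed the threshold (adjusted p = 0.0580). The diet effects differed by 0.03 between conventional and germ-free mice (adjusted p = 0.963). Without lard-fed conventional mice 5 and 6, the diet change in conventional mice was -0.50 (adjusted p = 0.0658). The status call with lard was lost without any 1 of lard-fed conventional mice 2, 3 and 4 or lard-fed germ-free mice 3, 4, 5 and 6 (changes of 0.44 to 0.52, adjusted p from 0.0617 to 0.103). With fish oil it was gained without conventional mouse 6 (0.65, adjusted p = 0.00623) or germ-free mouse 6 (0.59, adjusted p = 0.0308).

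Clock (probe set 10530733), the DNA-binding partner of ARNTL, varied little between mice, with SDs of 0.06 to 0.14 within the groups. The lowest, median and highest Clock values were 10.11, 10.35 and 10.48 log2 in lard-fed conventional mice and 10.40, 10.43 and 10.56 in lard-fed germ-free mice. They were 10.49, 10.63 and 10.79 in fish oil-fed conventional mice and 10.22, 10.44 and 10.54 in fish oil-fed germ-free mice. All 6 lard-fed conventional mice lay below all 6 fish oil-fed conventional mice, while the 2 germ-free groups lay over each other. The change with lard was -0.29 ± 0.07 in conventional mice (SE, limma adjusted p = 0.00174), 1.22-fold higher with fish oil, and 0.04 in germ-free mice (adjusted p = 0.602). The difference between these diet effects was -0.33 ± 0.09 (adjusted p = 0.0353). It missed the threshold without any 1 of 9 mice, namely lard-fed conventional 3 and 5, lard-fed germ-free 2, 4 and 5, fish oil-fed conventional 3 and 4, and fish oil-fed germ-free 3 and 4 (-0.33 to -0.28, adjusted p from 0.0513 to 0.0690). In conventional over germ-free mice the change was -0.12 with lard (adjusted p = 0.236) and 0.21 ± 0.07 with fish oil (adjusted p = 0.0434). The call with fish oil was lost without any 1 of conventional mice 1, 2, 3 and 4 or germ-free mice 1, 3, 4 and 5 (0.17 to 0.22, adjusted p from 0.0559 to 0.118). It was also lost when lard-fed germ-free mice 2, 4 and 5, which share the estimate of the spread, were omitted (0.21, adjusted p = 0.0566) and with the liver covariate (0.28, adjusted p = 0.103). Quantile normalization repeated (0.16, adjusted p = 0.124) and a fit of only the groups compared (0.21, adjusted p = 0.0529) lost it too. The mouse number as a replicate block did so as well (0.21, adjusted p = 0.0681).

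Per1 (probe set 10377439), a repressor of CLOCK and ARNTL that light and glucocorticoids also induce, was highest in fish oil-fed germ-free mice. In order, the lowest, median and highest Per1 values were 8.45, 8.71 and 9.26 log2 in lard-fed conventional mice and 8.87, 9.27 and 9.79 in lard-fed germ-free mice. They were 8.66, 8.74 and 9.48 in fish oil-fed conventional mice and 9.73, 9.89 and 10.04 in fish oil-fed germ-free mice. Among the fish oil-fed mice the conventional and germ-free groups did not overlap, and the change in conventional mice was -0.95 ± 0.17 (SE, limma adjusted p = 0.000852), 1.94-fold higher in germ-free mice. With lard this change was -0.45 and missed the threshold (adjusted p = 0.0734). It passed when lard-fed conventional mouse 1 (-0.53, adjusted p = 0.0378), lard-fed conventional mouse 5 (-0.53, adjusted p = 0.0308) or lard-fed germ-free mouse 5 (-0.53, adjusted p = 0.0442) was left out, with the liver covariate (-0.50, adjusted p = 0.0411) and with the dimmest 40% of genes removed (-0.45, adjusted p = 0.0497). Between the diets the change with lard was -0.12 in conventional mice (adjusted p = 0.637) and -0.63 ± 0.17 in germ-free mice (adjusted p = 0.00413), and the difference of the 2 missed the threshold (0.51, adjusted p = 0.213). Both Per1 calls involve the fish oil-fed germ-free group, in which the liver markers were high. With the liver marker mean as a covariate the changes were -0.66 for conventional over germ-free mice with fish oil (adjusted p = 0.121) and -0.31 for lard over fish oil in germ-free mice (adjusted p = 0.405). With lard-fed germ-free mice 2, 4 and 5 omitted, the lard over fish oil value was -0.37 (adjusted p = 0.171).

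Per2 (probe set 10356601), the period protein whose loss shortens and then ends the rhythm in mice, differed by bacterial status on both diets. For Per2 the lowest, median and highest values were 7.29, 7.52 and 7.99 log2 in lard-fed conventional mice and 7.94, 8.38 and 8.66 in lard-fed germ-free mice. They were 7.35, 7.52 and 8.19 in fish oil-fed conventional mice and 8.38, 8.63 and 8.75 in fish oil-fed germ-free mice. The conventional and germ-free groups did not overlap with fish oil, and overlapped slightly with lard. Conventional mice were lower by -0.71 ± 0.16 with lard (SE, limma adjusted p = 0.0029) and by -0.88 ± 0.16 with fish oil (adjusted p = 0.000794), which is 1.64-fold and 1.84-fold higher in germ-free mice. Neither diet comparison passed the threshold (-0.09, adjusted p = 0.719 in conventional and -0.26, adjusted p = 0.164 in germ-free mice). The fish oil value was -0.50 with the liver marker mean as a covariate (adjusted p = 0.182). Omitting lard-fed germ-free mice 2, 4 and 5 gave -0.76 with lard (adjusted p = 0.0574).

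Per3 (probe set 10518781), a period gene that is dispensable for the core rhythm in mice, also differed by bacterial status on both diets. Per3 had lowest, median and highest values that were 7.82, 7.97 and 8.59 log2 in lard-fed conventional mice and 8.36, 8.72 and 9.07 in lard-fed germ-free mice. They were 7.87, 8.04 and 8.85 in fish oil-fed conventional mice and 8.39, 8.67 and 9.23 in fish oil-fed germ-free mice. Neither diet comparison passed for Per3 (-0.09, adjusted p = 0.730 in conventional and -0.02, adjusted p = 0.928 in germ-free mice). Conventional mice were lower by -0.63 ± 0.17 with lard (SE, limma adjusted p = 0.0126) and by -0.56 ± 0.17 with fish oil (adjusted p = 0.0334) and the groups overlapped in both. The fish oil call was lost without any 1 of conventional mice 1, 2, 3 and 4 or germ-free mice 1, 2 and 3 (-0.55 to -0.46, adjusted p from 0.0589 to 0.0865). With the liver marker mean as a covariate the change was -0.04 (adjusted p = 0.935). Omitting lard-fed germ-free mice 2, 4 and 5 gave a lard value of -0.70 (adjusted p = 0.0894).

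Cry1 (probe set 10371400), a cryptochrome, which with the PER proteins represses CLOCK and ARNTL, was lower with lard whatever the bacterial status. Lowest, median and highest Cry1 values were 7.07, 7.24 and 7.39 log2 in lard-fed conventional mice and 6.93, 7.27 and 7.42 in lard-fed germ-free mice. They were 7.17, 7.58 and 7.94 in fish oil-fed conventional mice and 7.49, 7.52 and 7.62 in fish oil-fed germ-free mice. The lard-fed and fish oil-fed germ-free groups did not overlap. The change with lard was -0.33 ± 0.10 in conventional mice (SE, limma adjusted p = 0.0130) and -0.31 ± 0.10 in germ-free mice (adjusted p = 0.0141). Bacterial status gave 0.01 with lard (adjusted p = 0.953) and 0.04 with fish oil (adjusted p = 0.867). Without lard-fed conventional mice 5 and 6 the first change was -0.27 (adjusted p = 0.0914). The change in germ-free mice was -0.25 with each array centred on its median (adjusted p = 0.0519) and -0.43 with the liver covariate (adjusted p = 0.0625).

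Nr1d1 (probe set 10390691), the repressor of Arntl in the second loop, overlaps Thra in the gene table, and the strand behaviour of its probes was not tested. Values of Nr1d1 at the lowest, median and highest mouse were 11.08, 11.44 and 11.58 log2 in lard-fed conventional mice and 11.12, 11.47 and 11.90 in lard-fed germ-free mice. They were 11.18, 11.63 and 12.07 in fish oil-fed conventional mice and 11.75, 11.87 and 12.19 in fish oil-fed germ-free mice. It fell with lard in germ-free mice (-0.42 ± 0.14, SE, limma adjusted p = 0.0190), while the value in conventional mice was -0.19 (adjusted p = 0.335). The status comparisons gave -0.07 with lard (adjusted p = 0.808) and -0.30 with fish oil (adjusted p = 0.183). The call was lost without lard-fed germ-free mouse 2 (-0.35, adjusted p = 0.0589), without lard-fed germ-free mice 2, 4 and 5 together (-0.29, adjusted p = 0.222) and with the liver covariate (-0.26, adjusted p = 0.419). Arntl and Nr1d1, opposed in the loop, were thus both lower with lard in germ-free mice.

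Dbp (probe set 10553092), the D-box activator, had the largest log2 change of the 9 genes for lard over fish oil in germ-free mice and for conventional over germ-free mice with lard, and it overlaps Sphk2 in the gene table. Dbp values at the lowest, median and highest mouse were 8.53, 8.78 and 9.56 log2 in lard-fed conventional mice and 9.45, 9.70 and 10.23 in lard-fed germ-free mice. They were 7.95, 8.17 and 9.14 in fish oil-fed conventional mice and 8.18, 8.67 and 9.19 in fish oil-fed germ-free mice. Lard-fed germ-free mice were highest, and all 6 of them lay above every fish oil-fed mouse. With lard, Dbp rose by 1.13 ± 0.22 in germ-free mice (SE, limma adjusted p = 0.000176), 2.19-fold, and by 0.57 ± 0.22 in conventional mice (adjusted p = 0.0469). It was lower in conventional than in germ-free mice with lard (-0.89 ± 0.22, adjusted p = 0.00593), while the value with fish oil was -0.33 (adjusted p = 0.358), and the diet effects differed by -0.56 (adjusted p = 0.288). The diet call in conventional mice was lost without any 1 of lard-fed mice 1, 5 and 6 or fish oil-fed mice 1, 2, 3 and 4 (0.44 to 0.58, adjusted p from 0.0658 to 0.135). Without lard-fed mice 5 and 6 together it was 0.42 (adjusted p = 0.215), and it was also lost in 5 other settings that the closing section gives.

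Bhlhe40 (probe set 10540472), an E-box repressor that is also induced by hypoxia and in activated immune cells, was called in the same 3 comparisons and directions as Dbp. At the lowest, median and highest mouse, Bhlhe40 values were 8.01, 8.17 and 9.01 log2 in lard-fed conventional mice and 8.64, 9.05 and 9.31 in lard-fed germ-free mice. They were 7.22, 7.90 and 8.16 in fish oil-fed conventional mice and 7.85, 8.04 and 8.19 in fish oil-fed germ-free mice. All lard-fed germ-free mice lay above every fish oil-fed mouse, and the highest lard-fed conventional value, 9.01, lay among them. With lard, Bhlhe40 rose by 0.99 ± 0.15 in germ-free mice (SE, limma adjusted p = 1.72e-05), 1.99-fold, and by 0.51 ± 0.15 in conventional mice (adjusted p = 0.0131). It was lower in conventional than in germ-free mice with lard (-0.73 ± 0.15, adjusted p = 0.00214), and the value with fish oil was -0.25 (adjusted p = 0.324). The diet effects differed by -0.49 (adjusted p = 0.184), and by -0.63 without lard-fed conventional mouse 6, where the difference passed (adjusted p = 0.0307). Without lard-fed conventional mice 5 and 6, which had the highest macrophage marker means of their group, the diet change in conventional mice was 0.30 (adjusted p = 0.131) and the difference of diet effects -0.69 (adjusted p = 0.0160). Omitting lard-fed germ-free mice 2, 4 and 5 gave a status value with lard of -0.68 (adjusted p = 0.0780).

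A further 21 of 24 listed clock genes were measured. With lard, 3 rose and 4 fell in conventional mice, and 3 rose and 5 fell in germ-free mice, which is 7 and 8 of 21 beside 31.0% and 47.5% of all genes. The count in conventional mice was 4 without lard-fed conventional mice 5 and 6, beside 22.3% of all genes. In germ-free mice it was 5 with the liver covariate, beside 27.2%. With lard-fed germ-free mice 2, 4 and 5 omitted it was 4, beside 26.5%. Cry2, the other cryptochrome, fell in both (-0.49 and -0.37), and so did Nampt, the enzyme of NAD synthesis under clock control (-0.50 and -0.26). Wee1, a mitotic kinase driven by CLOCK and ARNTL, rose in both (0.49 and 0.90). Ciart, a repressor of CLOCK and ARNTL also known as Chrono, rose in conventional mice (0.73, limma adjusted p = 0.0113), with 0.37 in germ-free mice (adjusted p = 0.160).

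In conventional over germ-free mice, none of the 21 was called higher with lard or fish oil, beside 8.77% and 7.15% of all genes. Called lower were 5 of the 21 with lard and 2 with fish oil, beside 7.48% and 5.21% of all genes. With lard these were Nr1d2, the close relative of Nr1d1 (-0.55, limma adjusted p = 0.0192), Tef (-0.45) and Hlf (-0.39), the relatives of Dbp, Wee1 (-0.84) and the kinase gene Gsk3b (-0.21). All lard-fed germ-free mice, from 10.25 to 10.41 log2, lay above all lard-fed conventional mice, from 9.38 to 10.15, for Nr1d2. With fish oil they were Ciart (-0.92, adjusted p = 0.00700) and the casein kinase gene Csnk1e (-0.19, adjusted p = 0.0294). With lard the count called was 2 without lard-fed conventional mouse 3, beside 11.3% of all genes. It was 3 in a fit of only the 2 groups, beside 11.0%, and 8 with the liver covariate, beside 18.8%. Without lard-fed conventional mice 5 and 6 it was 9, beside 25.5%. With lard-fed germ-free mice 2, 4 and 5 omitted it was 0 by limma, beside 0.888%. With fish oil it was 4 without conventional mouse 6, and 1 without any 1 of conventional mice 1, 3 and 4 or germ-free mice 3, 4 and 6, with the liver covariate, with median centring and with the filter on low values. No gene of the 21 was called for a difference of diet effects (3 at an unadjusted p under 0.05), against 2 with median centring, 1 with the liver covariate and 2 without lard-fed conventional mice 5 and 6.

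Within the groups, several pairs of clock genes were correlated between mice. The deviations of each mouse from its group mean were correlated over 24 mice for 5 pairs, with 100000 permutations of the mice within groups, two-sided, and adjustment over the 5 pairs. A sixth pair, Arntl with Npas2, was not run. Arntl and Dbp had a Pearson r of -0.860 (permutation p = 2e-05, adjusted p = 0.0001) and a Spearman rho of -0.826 (permutation p = 2e-05). In every group mice with more Arntl had less Dbp, with r of -0.893 in lard-fed conventional, -0.739 in lard-fed germ-free, -0.922 in fish oil-fed conventional and -0.834 in fish oil-fed germ-free mice. Arntl and Nr1d1 had an r of -0.694 (permutation p = 0.00035, adjusted p = 0.000583) and a rho of -0.668 (permutation p = 0.0007). That relation was -0.929, -0.810 and -0.838 in lard-fed germ-free, fish oil-fed conventional and fish oil-fed germ-free mice but -0.051 in lard-fed conventional mice.

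Per2 and Per3 varied together between mice, with an r of 0.728 (permutation p = 0.00021, adjusted p = 0.000525) and a rho of 0.705 (permutation p = 0.00037). Their r was 0.906, 0.978 and 0.835 in lard-fed conventional, lard-fed germ-free and fish oil-fed conventional mice, and -0.113 in fish oil-fed germ-free mice. Nr1d1 and Dbp had an r of 0.551 (permutation p = 0.00865, adjusted p = 0.0108), while their rho of 0.410 missed the threshold (permutation p = 0.0600, adjusted p = 0.0749). By group this r was 0.016 in lard-fed conventional mice. It was 0.840 in lard-fed germ-free, 0.665 in fish oil-fed conventional and 0.639 in fish oil-fed germ-free mice. Arntl and Cry1 did not pass, with an r of 0.366 (permutation p = 0.161) and a rho of 0.230 (permutation p = 0.314). Their r was -0.807 in lard-fed germ-free mice. It was 0.236 in lard-fed conventional, 0.869 in fish oil-fed conventional and 0.618 in fish oil-fed germ-free mice. Leaving out the 2 mice farthest from the median of the first gene gave r of -0.791 for Arntl and Dbp, -0.610 for Arntl and Nr1d1, 0.673 for Per2 and Per3, 0.486 for Nr1d1 and Dbp, and -0.021 for Arntl and Cry1. With the liver list mean removed, the same 4 pairs passed.

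**Figure D3:**
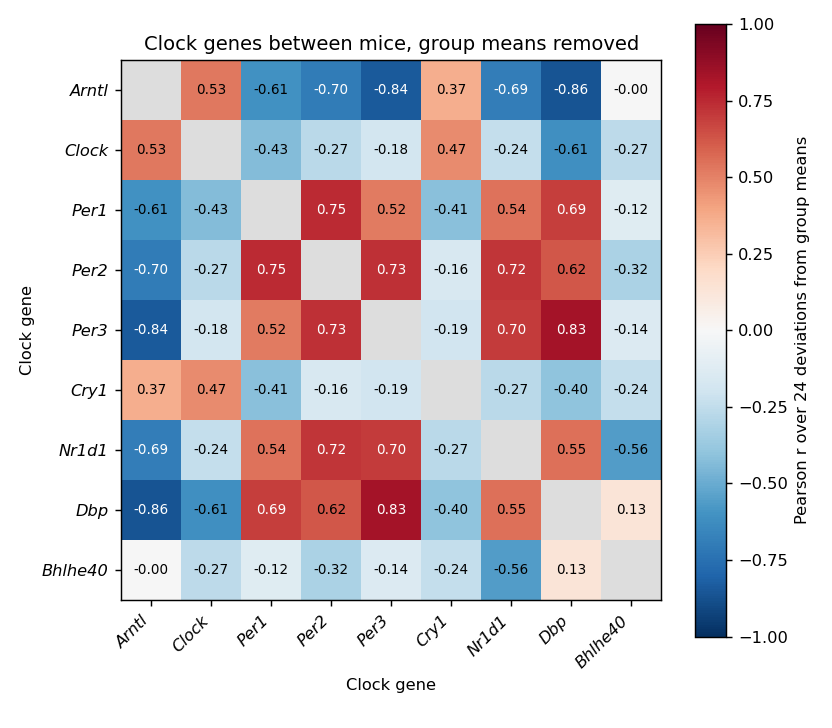
Pearson r between the 9 clock genes over the deviations of 24 mice from their group means, red above 0 and blue below. Arntl is opposed to Dbp, Per3, Per2, Nr1d1 and Per1, which vary together, and Bhlhe40 stands near 0 with Arntl and at -0.56 with Nr1d1.

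Leaving out any 1 mouse kept r between -0.879 and -0.816 for Arntl and Dbp, between -0.743 and -0.607 for Arntl and Nr1d1, and between 0.672 and 0.788 for Per2 and Per3. For Nr1d1 and Dbp r then lay between 0.439 and 0.630, and for Arntl and Cry1 between 0.040 and 0.524. Some mice show the pattern across several genes at once. Fish oil-fed conventional mice 5 and 6 had 8.81 and 8.17 log2 of Arntl, against 9.08 to 9.29 in the other 4 mice of the group. The same mice had 8.64 and 9.14 of Dbp against 7.95 to 8.26, and 8.19 and 8.15 of Per2 against 7.35 to 7.54. They thus had the lowest Arntl and the highest Dbp, Per1, Per2, Per3 and Nr1d1 of their group. Among lard-fed conventional mice, mice 1 and 5 were lowest in Arntl, with 8.00 and 8.15, and highest in Dbp, with 9.27 and 9.56, and in Per1, with 9.26 in both. The liver marker mean was 8.58 in fish oil-fed conventional mouse 6, against 6.94 to 7.38 in the rest of its group, and 7.08 in mouse 5. In lard-fed conventional mice 1 and 5 it was 8.56 and 7.79, against 7.06 to 7.81 in the others.

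**Figure D4:**
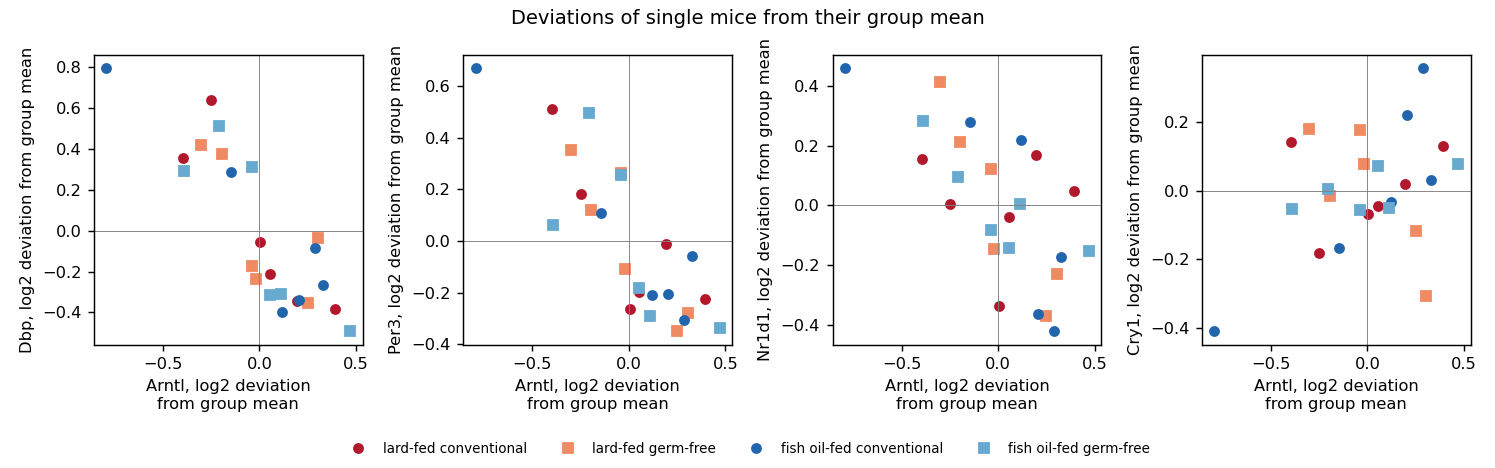
Deviation of each mouse from its group mean for Dbp, Per3, Nr1d1 and Cry1 against that for Arntl, in log2 units, 6 mice per group. Dbp and Per3 run from upper left to lower right in all 4 groups, with fish oil-fed conventional mouse 6 at the far left, while Cry1 shows no common direction.

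The genes most like Arntl and most opposed to it over these deviations were ranked among 19937 genes, as a description with no test. The 5 highest were Spon2 (r of 0.873), Dtx4 (0.752), Osgin1 (0.749), Stmn2 (0.736) and Serpinh1 (0.717). The 5 lowest with established names were Dbp (-0.860), Nr1d2 (-0.849), Per3 (-0.840), Tef (-0.730) and Sox11 (-0.730), so 4 of the 5 were clock genes. Per2 (-0.702), Nr1d1 (-0.694) and the further clock gene Ciart (-0.684) stood at ranks 13, 16 and 18 from the lowest, and Per1 (-0.609) at rank 56. Clock (0.530) stood at rank 149 from the highest, and Nfil3 (0.554), the repressor that competes with DBP for D-boxes, at rank 96. Bhlhe40, which changed with lard as Dbp did, had an r of -0.003 with Arntl between mice of the same group. With the liver list mean removed, Dbp, Nr1d2 and Per3 kept ranks 1, 2 and 3 from the lowest, and Clock stood at rank 13 from the highest. All these mice share one set of arrays and 1 scaling, and no source used here gives the hour at which each was sampled.

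**Figure D5:**
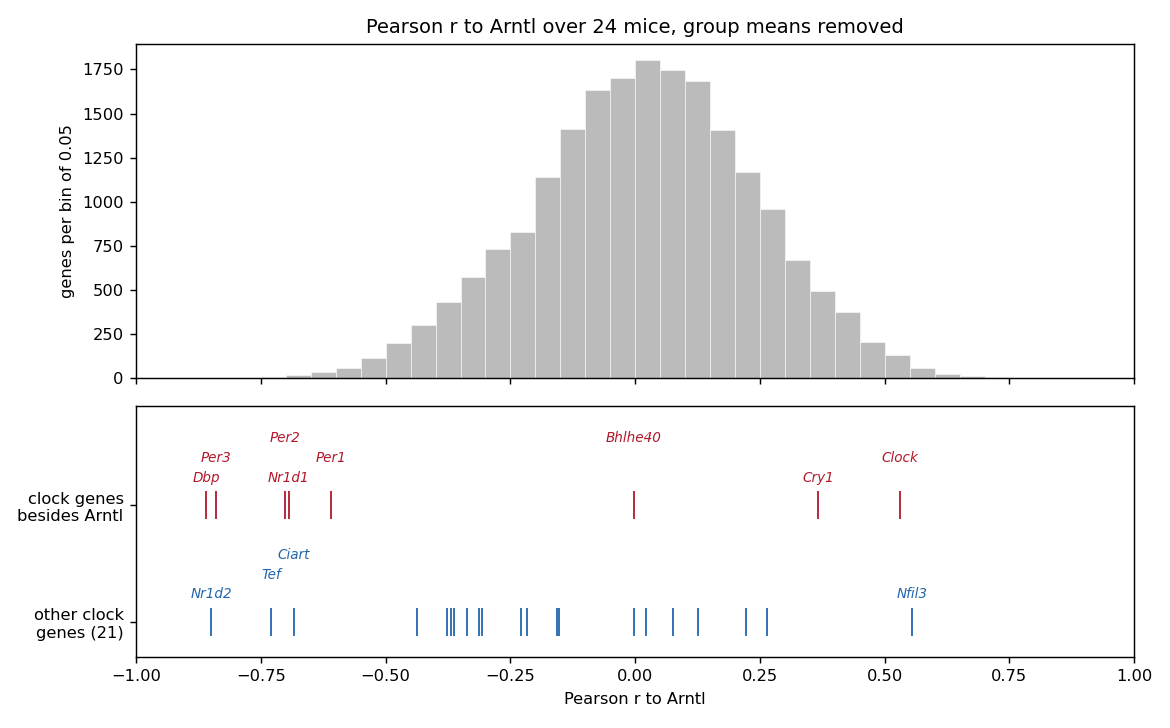
Upper panel, number of genes per bin of Pearson r to Arntl over the deviations of 24 mice from their group means. Lower panel, the same r for the 8 other measured clock genes and the 21 further clock genes, where Dbp, Nr1d2 and Per3 lie at the left edge of the distribution of all genes.

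Hormonal and stress signals also reach clock genes, Per1 among them, so 2 neighbouring lists are given beside them. Of 9 measured glucocorticoid targets, none was called higher in conventional than in germ-free mice on either diet, beside 8.77% of all genes with lard and 7.15% with fish oil. Called lower were 2 with lard and 3 with fish oil, beside 7.48% and 5.21% of all genes. With lard these were Klf9, a zinc finger repressor (-1.03, limma adjusted p = 0.000158), and the phosphatase gene Dusp1 (-0.71). With fish oil they were Dusp1 (-0.89), Sgk1 (-0.76), a kinase, and Tsc22d3 (-0.43), which encodes GILZ. The fish oil calls involve the fish oil-fed germ-free group, in which the liver markers were high. Mt1 and Mt2 went the other way with lard, without a call. Their means were 12.66 and 13.445 log2 in conventional mice, against 12.35 and 13.296 in germ-free mice. With lard in place of fish oil, 2 of the 9 rose and 2 fell in conventional mice, and 1 rose and 3 fell in germ-free mice, which is 4 of 9 in each beside 31.0% and 47.5% of all genes. Of 10 immediate early genes, Fos, Egr2 and Atf3 rose with lard by 0.88, 1.58 and 1.65 in conventional mice. Among germ-free mice they rose by 1.03, 1.02 and 0.99, and Fosb and Egr1 fell, which makes 3 of 10 beside 31.0% of all genes in conventional and 5 of 10 beside 47.5% in germ-free mice. In conventional over germ-free mice 1 of the 10 fell with lard (Jun, -0.34) and 3 with fish oil (Atf3, -1.24, Egr2, -0.92, and Jun, -0.32), beside the same 7.48% and 5.21% of all genes. The part of these responses in the values of the clock genes was not tested.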

How the data were processed

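RNA of 24 mice was amplified and hybridised, 1 mouse per one-colour Affymetrix array, per the labels' protocols. The authors deposited log2 values, which the submitters' processing notes credit to RMA; its version is not given in the sources used here. RMA corrects background and normalizes quantiles between arrays, so arrays are brought close before any comparison, and low signals are compressed. The lowest value was 2.19 and the highest 14.59, the medians of the arrays ran from 7.09 to 7.20, and 0 pairs of arrays were identical. The number of arrays limits the precision.

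Of 35556 probe sets, 21789 had 1 gene symbol, 1621 several and 12146 none. Symbols were updated by Entrez ID (21698 found, GRCm38.p6 gene table), and the probe set with the highest mean was kept per gene, which left 19938 genes. Group means of all 24 arrays were fitted with limma 3.58.1 (lmFit, eBayes) in R 4.3.3, with Benjamini-Hochberg adjustment over all genes and a threshold of 0.05. The fit was tested on simulated data. Changes are differences of mean log2 values. Correlations and motif searches used python 3.11.15, numpy 2.4.6, pandas 2.3.3 and scipy 1.17.1, and figures matplotlib 3.10.9.

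The 10 clock genes, 24 further clock genes, 10 glucocorticoid targets, 10 immediate early genes and the marker lists were chosen with earlier results of these data known. Genes named are members of these lists, plus the 5 highest and 5 lowest in likeness to Arntl, leaving out predicted names. Npas2 and a few genes of the other lists were not analysed here. Of 5 endothelial markers 1 fell with lard in germ-free mice, and 0 were called by limma in the other comparisons (0 to 3 at an unadjusted p under 0.05). The alternatives were other scalings, a filter, other priors, fits of fewer groups, a replicate block, a liver covariate and mice left out.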

Additional observations from a re-analysis of the deposited data

Results flagged for a closer look

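The effect of diet on Clock differed between conventional and germ-free mice by a test of the difference itself, with -0.33 log2 (limma adjusted p = 0.0353), from -0.29 in conventional and 0.04 in germ-free mice. It was 1 of 9 such tests among the clock genes. In 36 sets of 6 mice (9 genes in 4 groups) 0 held a mouse far enough from the others to pass Dixon's 95% critical value for 6 values, where chance gives about 1 in 20.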

How the results depend on the processing

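Of 1089 single-gene values recomputed for the 9 clock genes, 1005 kept their side of the threshold, 73 lost the call and 11 gained one. Among values called before or after, 0 reversed direction. Changes of direction in values called in neither fit were not counted. Counts of clock genes called moved by over 1.5 times in these cases, and the cause was not tested. Lard over fish oil in conventional mice gave 1 in place of 5 without lard-fed conventional mice 5 and 6. Lard over fish oil in germ-free mice gave 3 in place of 6 with the liver covariate. Conventional over germ-free with lard gave 1 in place of 5 with lard-fed germ-free mice 2, 4 and 5 omitted, and with fish oil 0 in place of 4 with the liver covariate. The difference of diet effects gave 0 in place of 1 with quantile normalization repeated, with the mouse number as a replicate block, with the liver covariate and with lard-fed germ-free mice 2, 4 and 5 omitted, and 1 (Bhlhe40 in place of Clock) without lard-fed conventional mice 5 and 6. Clock's difference in these 5 settings lay between -0.42 and -0.25 (adjusted p from 0.0553 to 0.226). Leaving out 1 mouse gave 4 to 5, 5 to 6, 4 to 6, 2 to 5 and 0 to 2 calls in the 5 comparisons, in the order just given. Dbp in conventional mice lost its diet call with median centring (0.54, adjusted p = 0.0567), repeated quantile normalization (0.54), trend and robust priors (0.57), only the groups compared (0.57) and the liver covariate (0.53, adjusted p = 0.0633). Per3 with fish oil lost its status call with median centring (-0.49, adjusted p = 0.0507), where Arntl gained one (0.56, adjusted p = 0.0251). The diet value of Nampt in germ-free mice was 0.12 with the liver covariate (adjusted p = 0.522), in place of -0.26.

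The replicate block gave 5, 6, 4, 3 and 0 calls, losing Arntl with lard (adjusted p = 0.0510) and Clock with fish oil (adjusted p = 0.0681) in the status comparisons. Mice of the same number did not deviate together: r over 36 pairs lay between -0.497 and 0.351, 9 were over 0.1, and 2 of 24 mice matched their own number best. The fit of only the groups compared was not run for the difference of diet effects. Of 5 correlated pairs 4 passed with Pearson r under every setting run, and 3 with Spearman rho.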
